A study of Mus musculus with 35 samples.

Results

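The genes described here are 51 mouse genes of DNA repair and of the checkpoints that respond to DNA damage. They were taken from a list of such genes, and a gene was kept where the expression table of the study names it. They make up 51 of the 11982 gene names in that table, and all 51 passed the filter on low values, a mean of at least 0.5 RPKM (reads per kilobase of transcript, scaled to the reads mapped in the library) over the 4 libraries. By their roles they were sorted into 7 pathways, namely 7 genes of damage kinases and checkpoint signalling, 12 of homologous recombination, 8 of the Fanconi anemia pathway, 3 of mismatch repair, 5 of end joining, 8 of base excision and single-strand break repair and 8 of nucleotide excision repair.

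Polyadenylated RNA was sequenced from hematopoietic stem/progenitor cells (HSPCs) of mouse bone marrow, and the comparison asks how the loss of JMJD1B, a histone demethylase encoded by Kdm3b, changes their gene expression. There were 2 libraries from WT mice and 2 from JMJD1B-/- mice, all of the 129P2xC57BL/6J strain. The JMJD1B-/- mice carry a gene-trap allele of Kdm3b in every tissue, so the bone marrow around the HSPCs lacked the gene as well. The study's methods name adult mice of both sexes for the work as a whole. The labels do not give the age or sex behind each RNA library, nor whether the libraries of a genotype came from separate mice, so the p-values below measure the spread between these libraries, which may be technical.

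Cells meet DNA damage with separate sets of proteins. Homologous recombination copies the sister chromatid to mend a break and works mainly in S and G2 phase, whereas end joining ligates the broken ends directly, and the Fanconi anemia proteins unhook crosslinks between strands. Excision pathways remove altered bases, bulky lesions or mismatches and refill the gap, and the kinases ATM and ATR halt the cell cycle meanwhile. In the blood system, inherited defects of the Fanconi anemia genes are known for bone marrow failure.

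The estimated depth was 6100000 reads in JMJD1B-/- replicate 1 and 17500000 to 24600000 reads in the other 3 libraries, so that 3 reads on a transcript of 1 kb stand for 0.491 RPKM in the former and 0.122 to 0.171 RPKM in the latter. Kdm3b itself measured 31.0 and 24.3 RPKM in WT and 4.00 and 4.63 RPKM in JMJD1B-/- HSPCs, with a log2 fold change of -2.65 (SE 0.24, adjusted p = 0.0314, limma), in the direction of the labels. Of the HSPC markers Kit was listed at 51.6 to 92.7 RPKM and Myb at 137 to 211 RPKM in the 4 libraries. Ly6a was listed at only 0.629 to 2.96 RPKM and Hlf at 2.51 to 6.07 RPKM. Of the 10 HSPC markers, 9 had a negative log2 fold change, with a median of -0.63. Flt3 (-1.84), Cd34 (-1.46), Gata2 (-0.77) and Meis1 (-0.62) were lower in JMJD1B-/- at an unadjusted p under 0.05. All 10 erythroid markers were higher in JMJD1B-/- without overlap, with a summed level of 489 and 735 RPKM in WT and 1336 and 1931 RPKM in JMJD1B-/-. All 6 basophil and mast cell markers were lower, with 530.0 and 586 RPKM against 125 and 88.6 RPKM. Of 7 granulocyte markers tested, Mpo (-2.65), Elane (-2.29), Ctsg (-2.13) and Prtn3 (-2.11) were lower and S100a8 (0.70) and S100a9 (2.17) higher at an unadjusted p under 0.05, and the 9 listed summed to 268 and 182 RPKM in WT and 82.4 and 53.1 RPKM in JMJD1B-/-. Of 7 monocyte and macrophage markers, Csf1r (-1.80), Ctss (-1.35) and Ly6c2 (-1.09, with overlap) were lower at an unadjusted p under 0.05. Emr1 alone had a positive fold change (0.95, SE 1.0), with 13.0 RPKM in JMJD1B-/- replicate 1 against 1.06 to 5.05 RPKM elsewhere. The 7 markers summed to 128 and 133 RPKM in WT and 121 and 38.4 RPKM in JMJD1B-/-. The 7 markers of T and NK cells summed to 46.6 RPKM in JMJD1B-/- replicate 1 and to 13.4 to 25.9 RPKM in the other libraries, with Cd3e (1.70) and Cd3g (3.03) higher and Nkg7 (-1.30) lower at an unadjusted p under 0.05. Of 7 B cell markers Cd79b alone was listed, and it was lower (-1.43, unadjusted p = 0.0381, limma). All 5 stroma and endothelium markers tested had negative fold changes, and Pecam1 (-1.44) and Col1a2 (-2.64) were lower. Their summed level was 38.2 and 67.4 RPKM in WT and 24.01 and 9.97 RPKM in JMJD1B-/-, with WT replicate 2 apart in Col1a1 at 15.7 RPKM against 0.997 to 2.13 RPKM elsewhere. In RNA from a mixed population, fewer cells of a type and less RNA per cell cannot be told apart.

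The repair genes were expressed well above the limit set by depth in WT HSPCs, and 40 of the 51 had a mean of at least 10 RPKM. Their median WT level was 15.6 RPKM, against 10.3 RPKM over all listed genes. Ddb1, which recruits the nucleotide excision machinery to lesions in chromatin, was highest with 98.9 and 109 RPKM in the 2 WT libraries. Parp1, the sensor of strand breaks that synthesizes poly(ADP-ribose), followed with 65.8 and 71.9 RPKM, and Msh6, a subunit of the complex that recognizes mismatches, with 43.9 and 55.6 RPKM. Each of these 3 genes was separated from the next in order in both WT libraries. Parp2, Xrcc6, Blm, Rad50 and Mre11a came next with means of 36.4 to 40.2 RPKM, and the WT libraries of these neighbours overlapped. From Nbn at a mean of 24.1 RPKM down to Fancl at 13.1 RPKM, 25 genes followed without a single gap between the libraries of neighbours. At the low end stood Ercc1 at 3.16 and 3.85 RPKM, the 8-oxoguanine glycosylase gene Ogg1 at 3.06 and 2.81 RPKM, and Lig4, the ligase of end joining, at 1.79 and 1.16 RPKM. Within single pathways the levels spread widely, as from Xrcc6 to Lig4 in end joining or from Ddb1 to Ercc1 in nucleotide excision repair.

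**Figure D1:**
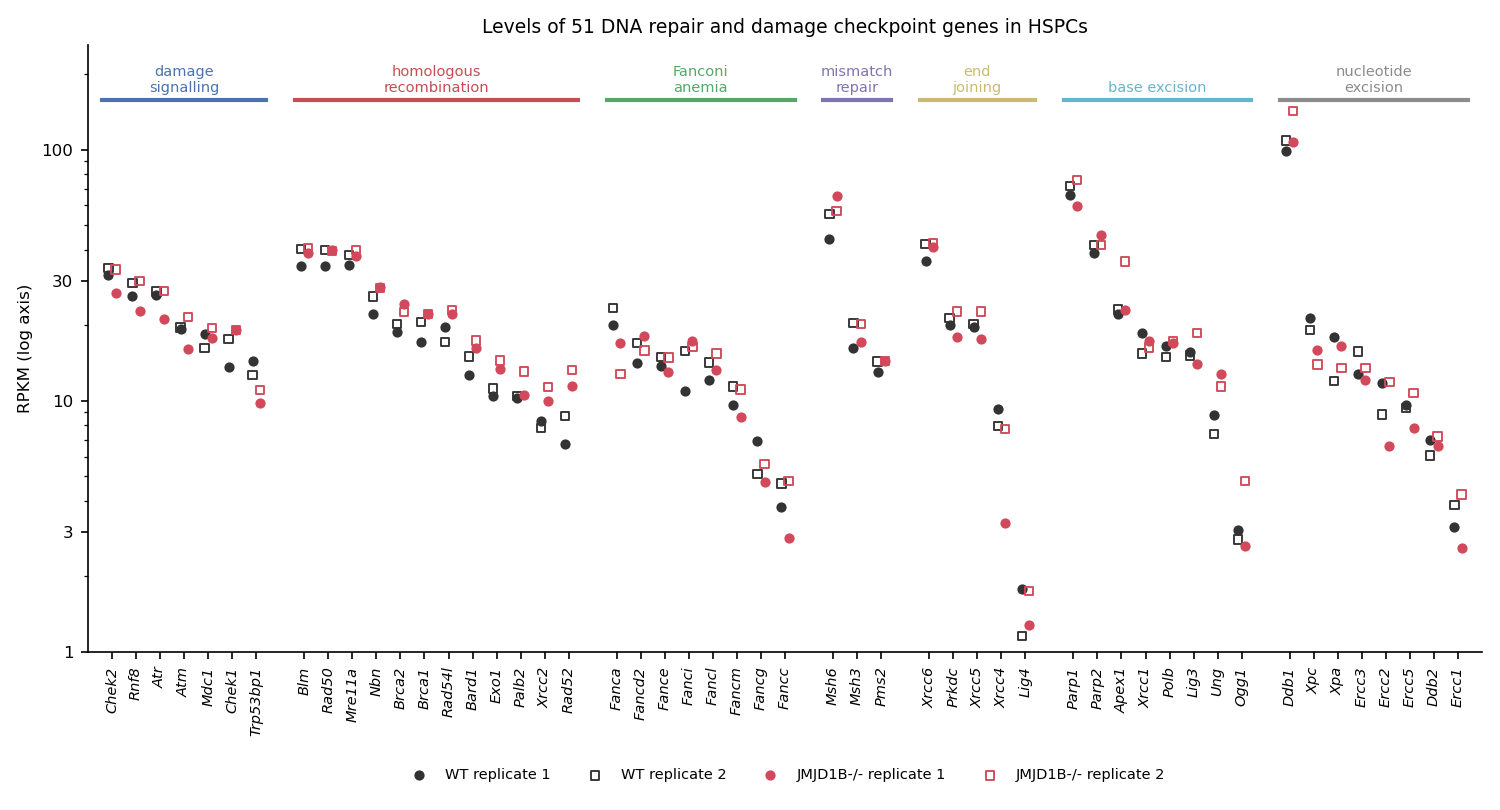
RPKM on a log axis for each of the 51 genes in each of the 4 libraries, grouped by pathway and ordered by the mean WT level. Black symbols are WT and red symbols JMJD1B-/- libraries, with circles for replicate 1 and squares for replicate 2. Most red symbols lie within or close to the range of the black ones, and Xrcc4 in JMJD1B-/- replicate 1 lies at 3.27 RPKM, below the other 3 libraries.

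Loss of JMJD1B went with small differences in the repair genes. On the log2(RPKM + 0.1) scale the fold changes ran from -0.76 (Xrcc4) to 0.69 (Rad52), with a median of 0.08 against -0.02 over the 11863 genes tested. At an unadjusted p under 0.05 in limma, Rad52 and Ung were higher in JMJD1B-/- HSPCs and Fanca was lower. These are 3 of 51 genes (5.88%), and among all genes tested 10.1% passed, 3.81% as higher and 6.33% as lower. None of the 51 passed after Benjamini-Hochberg adjustment over all genes tested (lowest adjusted p = 0.433, limma), where 0.0421% of all genes did, and none did in the gene-by-gene test either. Without overlap, JMJD1B-/- lay above WT in 16 of the 51 genes (31.4%, against 20.1% of all genes) and below them in 4 (7.84%, against 22.7%), and in 31 the genotypes overlapped. With 3 libraries groups separate more readily, and without JMJD1B-/- replicate 1 36 of the 51 genes were above WT (70.6%, against 46.5% of all genes) and 4 below (7.84%, against 33.2%). Without JMJD1B-/- replicate 2 it was 18 above (35.3%, against 29.6%) and 21 below (41.2%, against 49.0%). Without WT replicate 1, 21 were above (41.2%, against 28.8%) and 9 below (17.6%, against 31.9%). Without WT replicate 2, 25 were above (49.0%, against 31.8%) and 8 below (15.7%, against 34.9%). A positive fold change was seen in 32 genes (62.7%, against 47.0%). For 44 of the 51 genes, and for 54.7% of all genes tested, the 95% interval of the fold change lay within a 2-fold change in either direction, the exceptions among the 51 being Rad52, Ung, Fanca, Fancc, Xrcc4, Lig4 and Ogg1. The replicates of a genotype differed by a median of 0.21 (WT) and 0.20 (JMJD1B-/-) on the log2 scale over the 51 genes, and by 0.22 and 0.36 over all genes tested. With 2 libraries against 2, an exact two-sided permutation test of a single gene cannot go below p = 0.333.

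**Figure D2:**
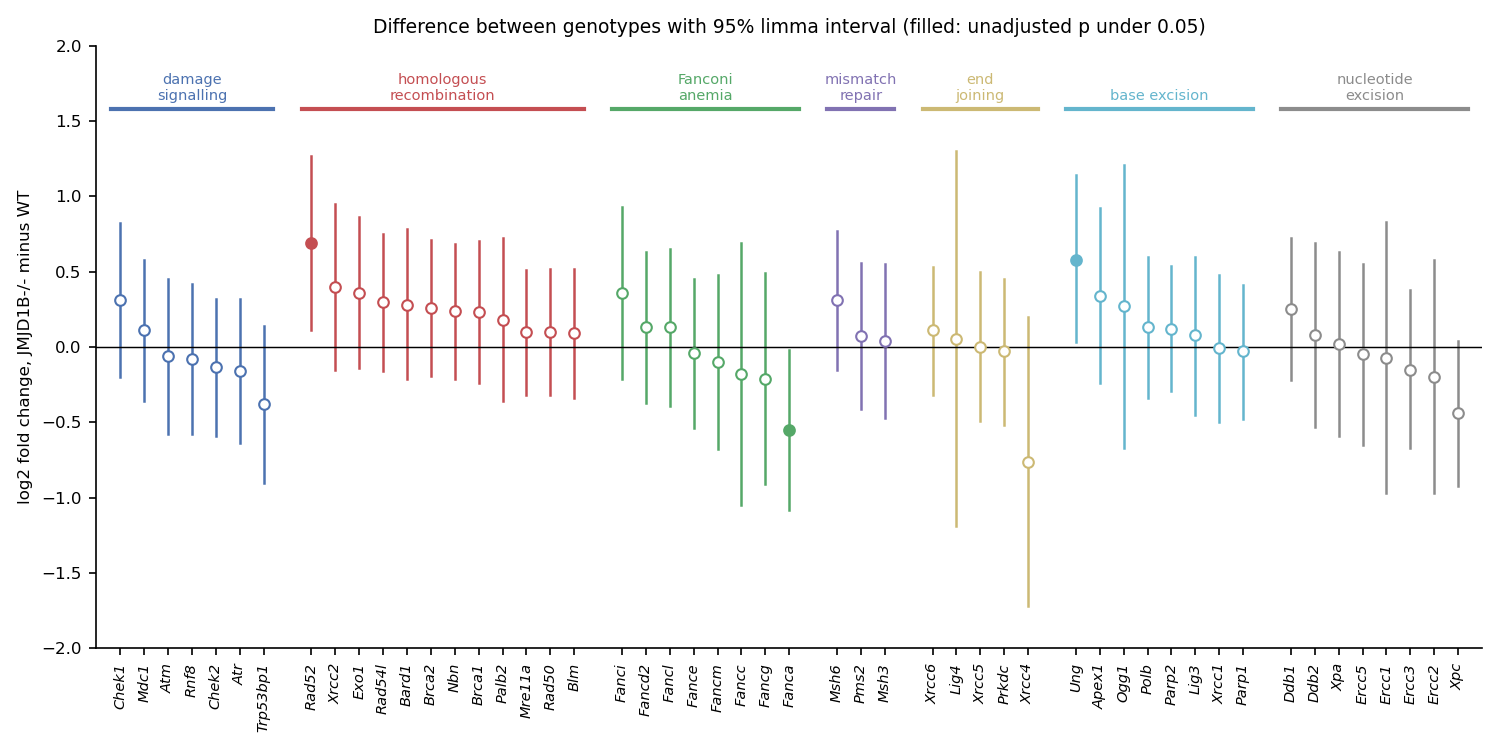
Log2 fold change of each gene, JMJD1B-/- minus WT on the log2(RPKM + 0.1) scale, with the 95% interval of the limma fit as a vertical line, ordered within pathways. Filled points mark Rad52, Ung and Fanca, which passed an unadjusted p under 0.05, and the 12 points of homologous recombination all lie above 0.

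**Figure D3:**
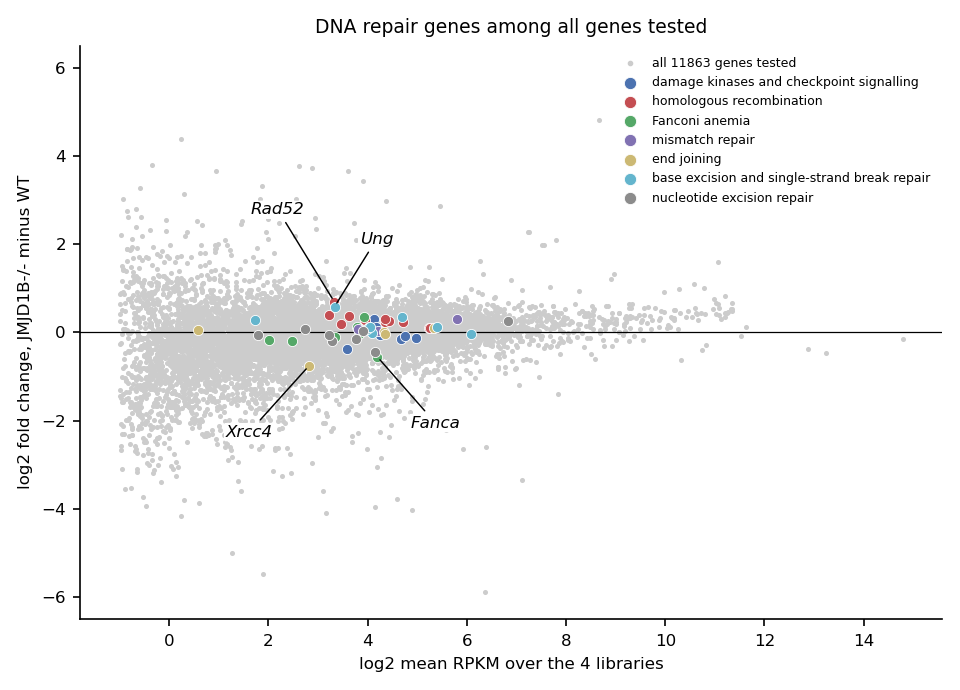
Log2 fold change, JMJD1B-/- minus WT, against the log2 of the mean RPKM over the 4 libraries, with all 11863 genes tested in grey and the 51 repair genes coloured by pathway. Most repair genes sit at intermediate levels, near a fold change of 0, with Rad52 and Ung at the upper edge of their cloud and Xrcc4 and Fanca at the lower edge.

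Homologous recombination was the pathway whose 12 genes lay together on the side of JMJD1B-/-. Their median log2 fold change was 0.25, all 12 values were positive (against 47.0% of all genes), and in 9 of the 12 the JMJD1B-/- libraries were above WT without overlap (75.0%, against 20.1%). Of these, Rad52 alone passed an unadjusted p under 0.05. Rad52, a mediator of strand annealing, measured 6.71 and 8.69 RPKM in WT and 11.5 and 13.3 RPKM in JMJD1B-/-. The genotypes did not overlap, and the means were 7.70 ± 1.40 and 12.4 ± 1.27 RPKM (SD, n = 2), a log2 fold change of 0.69 (SE 0.25, 95% interval 0.11 to 1.27, unadjusted p = 0.0266, adjusted p = 0.433, limma). The call was lost in the gene-by-gene test (unadjusted p = 0.0823) and without either WT library (log2 fold change 0.51 and 0.87).

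The other 11 genes of the pathway had log2 fold changes of 0.09 to 0.40, none with an unadjusted p under 0.05. Xrcc2, whose product acts in strand exchange, had 8.34 and 7.78 RPKM in WT and 10.03 and 11.3 RPKM in JMJD1B-/- (log2 fold change 0.40, SE 0.23). Exo1, the exonuclease that resects broken ends, had 10.5 and 11.2 RPKM against 13.4 and 14.5 RPKM (0.36, SE 0.21), and its replicates lay close together in both genotypes. The motor protein gene Rad54l (0.30), the partner genes Bard1 (0.28) and Brca1 (0.23), Brca2 (0.26), a tumour suppressor gene of break repair, its partner Palb2 (0.18) and Nbn (0.24) were likewise above WT in both JMJD1B-/- libraries. Bard1 had 12.7 and 15.0 RPKM in WT and 16.2 and 17.4 RPKM in JMJD1B-/-, and Brca2 18.8 and 20.2 RPKM against 24.3 and 22.6 RPKM. Mre11a and Rad50, which form the end-binding complex with Nbn, had fold changes of 0.10 each, and the helicase gene Blm, the highest of the pathway by its WT mean but not apart from Rad50 and Mre11a, had 34.3 and 40.3 RPKM against 38.7 and 40.6 RPKM (0.09). In these 3 genes the genotypes overlapped, as WT replicate 2 reached the JMJD1B-/- values. When WT replicate 1 was left out, 10 of the 12 fold changes were positive and the median was 0.16, and with any other library left out all 12 were positive with medians of 0.24 to 0.33.

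Of 24 proliferation markers, 4 were higher, 7 overlapped between genotypes and 2, Foxm1 (-0.15) and Kif11 (-0.05), had negative fold changes. The other 22 had a positive one (91.7%, against 47.0% of all genes), and 17 were above WT without overlap (70.8%, against 20.1%). Mcm5, Ccna2, Rrm1 and Rrm2 passed an unadjusted p under 0.05 as higher (16.7%, against 3.81%). Their number fell to 0 without WT replicate 1, and to 1 without WT replicate 2, without a trend or in the gene-by-gene test, and leaving out JMJD1B-/- replicate 2 gave 2 and leaving out replicate 1 gave 6. The median of the 24 was 0.26, but 0.13 without WT replicate 1, 0.15 without JMJD1B-/- replicate 2 and 0.31 to 0.38 with another library left out, and their summed level was 1498 and 1730 RPKM in WT and 1886 and 1955 RPKM in JMJD1B-/-. Rrm2, a subunit of ribonucleotide reductase, showed the largest log2 fold change of the 24, at 0.81 (SE 0.22, adjusted p = 0.32, limma). In both lists WT replicate 1 was low and WT replicate 2 nearer to the JMJD1B-/- libraries, which can be seen in the plot of values per library. The part of proliferation, and that of the cell type markers described above, in the levels of the repair genes was not tested.

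**Figure D4:**
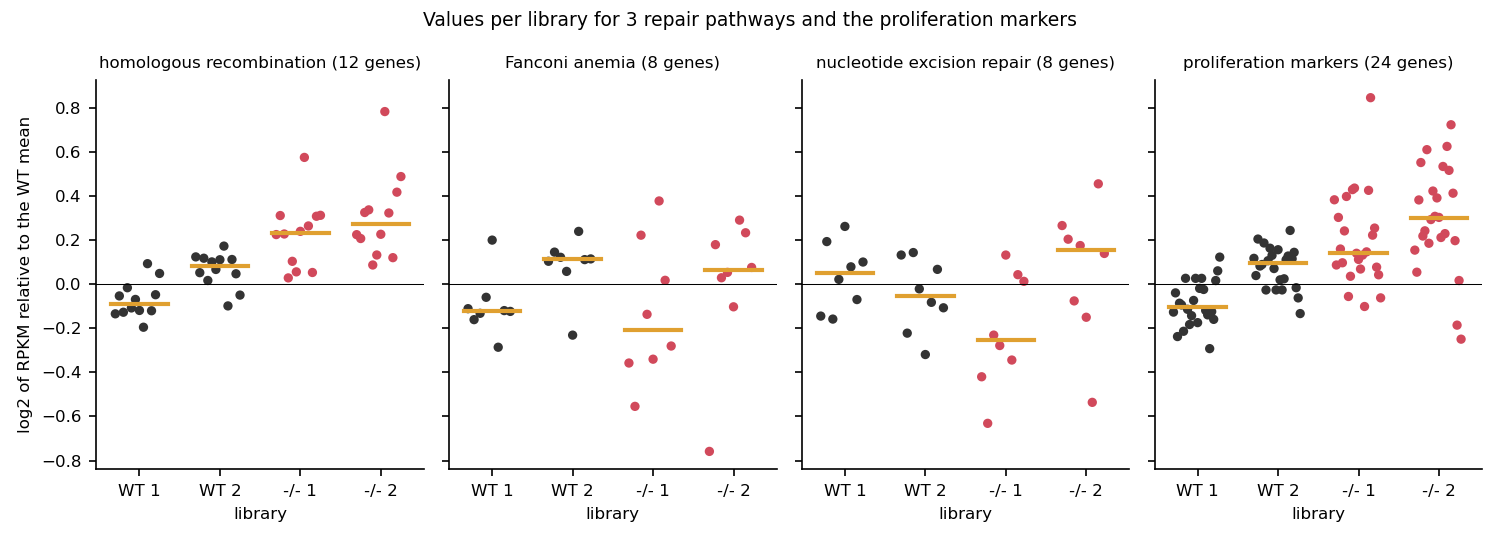
Log2 of the RPKM of each gene relative to its WT mean, by library, for homologous recombination, the Fanconi anemia pathway, nucleotide excision repair and the 24 proliferation markers. Each point is a gene, black in WT and red in JMJD1B-/- libraries, and the yellow bar is the median. In homologous recombination and in the proliferation markers both JMJD1B-/- medians lie above both WT medians, while in nucleotide excision repair the JMJD1B-/- medians lie on either side of WT and in the Fanconi anemia genes replicate 1 lies below WT and replicate 2 between the WT medians.

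The Fanconi anemia genes showed no common side. The median log2 fold change of the 8 genes was -0.07, with 3 values above and 5 below 0. It was 0.07 without JMJD1B-/- replicate 1, 0.02 without WT replicate 2 and -0.21 without JMJD1B-/- replicate 2. Fanca, a subunit of the core complex that ubiquitinates the FANCD2-FANCI pair, had 20.1 and 23.4 RPKM in WT and 16.9 and 12.8 RPKM in JMJD1B-/-. The genotypes did not overlap, and the log2 fold change was -0.55 (SE 0.23, 95% interval -1.08 to -0.02, unadjusted p = 0.0426, adjusted p = 0.48, limma). With a fold change of -0.54 to -0.55 the call was lost with median-ratio or quantile scaling (unadjusted p = 0.0638 and 0.0599, limma), without a trend (0.0839) and in the gene-by-gene test (0.135). It was also lost without either WT library (-0.66 and -0.45) and without JMJD1B-/- replicate 2 (-0.35). Fanci, in contrast, had 10.9 and 15.8 RPKM in WT and 17.4 and 16.4 RPKM in JMJD1B-/-, both of them above WT, with a fold change of 0.36 (SE 0.24) that did not pass. Its partner Fancd2 (0.13) and the ligase gene Fancl (0.13) were slightly positive, and Fance (-0.04), Fancm (-0.10), Fancg (-0.21) and Fancc (-0.18) slightly negative, with the genotypes overlapping in all 6. Fancc was the lowest of the pathway, with 3.78 and 4.69 RPKM in WT and 2.85 and 4.81 RPKM in JMJD1B-/-.

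Among the damage kinases and checkpoint genes, no gene passed an unadjusted p under 0.05 and the median log2 fold change was -0.08. Its sign rested on JMJD1B-/- replicate 1, as the median was 0.12 without that library, against -0.28 without JMJD1B-/- replicate 2, -0.17 without WT replicate 1 and -0.05 without WT replicate 2. The apical kinase genes Atm (19.3 and 19.6 against 16.1 and 21.6 RPKM) and Atr (26.4 and 27.3 against 21.2 and 27.3 RPKM) overlapped between genotypes. Chek2, the effector kinase downstream of ATM and the highest of these 7 genes, had 31.8 and 33.8 RPKM in WT and 26.9 and 33.3 RPKM in JMJD1B-/- (-0.13, SE 0.20). In all 3 kinase genes JMJD1B-/- replicate 1, the library of least depth, was the lowest. Chek1, the effector of ATR, was above WT in both JMJD1B-/- libraries, with 13.6 and 17.6 against 19.2 and 19.2 RPKM (0.31, SE 0.22). Trp53bp1, whose product 53BP1 shields ends from resection, was below WT in both, with 14.4 and 12.7 against 9.77 and 11.0 RPKM (-0.38, SE 0.22, adjusted p = 0.608, limma). The adaptor gene Mdc1 (0.11) and the ubiquitin ligase gene Rnf8 (-0.08) overlapped.

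End joining contained the gene with the largest negative fold change, Xrcc4, the scaffold of the final ligation. Xrcc4 had 9.29 and 7.93 RPKM in WT and 3.27 and 7.72 RPKM in JMJD1B-/-, so that replicate 1 was far below the other 3 libraries and replicate 2 just below WT. The log2 fold change of -0.76 had an SE of 0.41 and did not pass (unadjusted p = 0.105, adjusted p = 0.582, limma). It was -1.37 without JMJD1B-/- replicate 2 (adjusted p = 0.02, limma) and -0.15 without JMJD1B-/- replicate 1, so the value rests on the latter library, where 3.27 RPKM stand for about 19.9 reads per kb at the estimated depth. Its partner Lig4 had 1.79 and 1.16 RPKM in WT and 1.28 and 1.75 RPKM in JMJD1B-/-, with the widest interval of the 51 genes (0.05, 95% interval -1.19 to 1.30). The end-binding Ku genes Xrcc6 (0.11) and Xrcc5 (0.00) and the gene of the kinase they recruit, Prkdc (-0.03), were expressed at 17.7 to 42.6 RPKM in the 4 libraries and overlapped between genotypes. The median of the 5 genes was 0.00, turning to 0.13 when JMJD1B-/- replicate 1 was left out and to -0.18 when replicate 2 was. Xrcc6 was the highest, with 35.9 and 42.0 against 41.1 and 42.6 RPKM.

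In base excision and single-strand break repair the median log2 fold change was 0.13, falling to 0.02 when JMJD1B-/- replicate 2 was left out and reaching 0.21 when replicate 1 was. Ung, the uracil-DNA glycosylase gene, had 8.76 and 7.37 RPKM in WT and 12.8 and 11.4 RPKM in JMJD1B-/-. The JMJD1B-/- libraries were both above WT, with a log2 fold change of 0.58 (SE 0.24, 95% interval 0.03 to 1.14, unadjusted p = 0.041, adjusted p = 0.477, limma). The call was lost at the same fold change without a trend (unadjusted p = 0.0517, limma), with a replicate block (0.0507, limma) and in the gene-by-gene test (0.0589). It was also lost without either WT library (0.71 and 0.46) or without JMJD1B-/- replicate 1 (0.50). Parp2 (0.12) and the gap-filling polymerase gene Polb (0.13) were also above WT in both libraries but by less than their SE. Parp1 overlapped, with 65.8 and 71.9 RPKM in WT and 59.6 and 75.7 RPKM in JMJD1B-/- (-0.03, SE 0.19). Apex1, the gene of the endonuclease that cuts at abasic sites, had 22.2 and 23.1 RPKM in WT and 22.9 RPKM in JMJD1B-/- replicate 1, and replicate 2 stood apart at 35.9 RPKM (0.34, SE 0.25). Ogg1 showed the same arrangement at a low level, with 3.06 and 2.81 against 2.64 and 4.78 RPKM (0.27, SE 0.40). The scaffold gene Xrcc1 (-0.01) and its ligase gene Lig3 (0.08) lay near 0.

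Of the 8 nucleotide excision genes, none passed and the median was -0.06. It was 0.16 without JMJD1B-/- replicate 1, -0.25 without JMJD1B-/- replicate 2, -0.01 without WT replicate 1 and 0.01 under quantile normalization. Xpc, whose product first recognizes distorted DNA, was the gene of this pathway that did not overlap between genotypes, with 21.4 and 19.1 RPKM in WT and 16.0 and 14.0 RPKM in JMJD1B-/- (log2 fold change -0.44, SE 0.20, 95% interval -0.92 to 0.04, unadjusted p = 0.0678, adjusted p = 0.521, limma). Ddb1 had 98.9 and 109 RPKM in WT and 107 and 142 RPKM in JMJD1B-/- (0.25, SE 0.20), with replicate 2 of JMJD1B-/- highest. Its partner Ddb2 (0.08) and Xpa (0.02), which verifies the lesion, lay near 0. The helicase genes Ercc2 (-0.20) and Ercc3 (-0.15) and the nuclease genes Ercc5 (-0.05) and Ercc1 (-0.07) were slightly negative. Ercc1 had 3.16 and 3.85 RPKM in WT and 2.59 and 4.23 RPKM in JMJD1B-/-, and in Ercc1, Ercc2, Ercc3 and Ercc5 alike JMJD1B-/- replicate 1 was the lowest library.

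Mismatch repair was represented by Msh6, Msh3 and Pms2. Msh6 had 43.9 and 55.6 RPKM in WT and 65.5 and 57.1 RPKM in JMJD1B-/- (0.31, SE 0.20), and Pms2, a subunit of the endonuclease that nicks near the mismatch, had 13.0 and 14.4 against 14.4 and 14.4 RPKM (0.07, SE 0.21). Both JMJD1B-/- libraries were above WT in these genes, though in each the nearest libraries of the genotypes lay closer than the WT replicates did. In Msh3 (0.04) they overlapped. The median of the 3 was 0.07, and it ranged from 0.00 without WT replicate 1 to 0.20 without WT replicate 2.

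Beyond the 51 genes, 95 of 101 further repair genes were in the table, and their median log2 fold change was 0.05. Fen1, the flap endonuclease of long-patch repair and replication, had 35.1 and 44.8 RPKM in WT and 53.8 and 63.2 RPKM in JMJD1B-/- (0.56, SE 0.20, unadjusted p = 0.0264, adjusted p = 0.433, limma). Mgmt, which removes alkyl groups from guanine, had 11.3 and 8.94 RPKM in WT and 3.99 and 5.54 RPKM in JMJD1B-/-. Its log2 fold change of -1.08 (SE 0.29, unadjusted p = 0.00681, adjusted p = 0.316, limma) was larger in size than that of any of the 51 genes. Neil3, a glycosylase gene, was lower with 30.4 and 27.4 against 18.3 and 22.7 RPKM (-0.50). Of the 95 genes, 19 were above WT in both JMJD1B-/- libraries (20.0%, against 20.1% of all genes) and 12 below (12.6%, against 22.7%). With 1 library left out 27 to 47 were above (28.4% to 49.5%, against 28.8% to 46.5% of all genes). Below WT were then 15 to 36 (15.8% to 37.9%, against 31.9% to 49.0%). Of 24 further genes of homologous recombination none passed, 5 were above (20.8%) and 1 below (4.17%), and their median was 0.07, against 0.25 in the 12 described above.

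Promoter sequences were available for 41 of the 51 genes (43 promoters of 300 bases, RefSeq, GRCm38.p6), and are shown because many repair genes are induced with the cell cycle through E2F factors. Letters of the E2F motif (TTTCCCGC, TTTGGCGC, TTTGCCGC or TTTCGCGC, both strands) were found in 8 of the 41 genes (19.5%), against 2.6% of all 27025 genes with a promoter entry. That background also holds genes that the expression table does not name. The 8 genes were Fancg, Chek2, Mdc1, Xrcc6, Bard1, Brca2, Msh3 and Msh6. The CCAAT box (CCAAT, both strands) was in 23 genes (56.1%, against 41.1%), and the letters of the cell cycle homology region (TTTGAA or TTCGAA, both strands) in 5 (12.2%, against 21.7%). The median GC content of the 250 bases before the start site was 58.8% in the repair genes and 52.4% over all promoters. These matches describe letters in a window and are not binding sites.

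The 250 bases before the start site are given for the 3 genes with an unadjusted p under 0.05 and for 2 genes of homologous recombination with E2F letters, 5' to 3' on the strand of the gene. Capitals mark E2F or CCAAT letters. They lie at chr6:119902448-119902697 on the plus strand, chr5:114130185-114130434 on the plus strand, chr8:123318577-123318826 on the minus strand, chr1:71102973-71103222 on the minus strand and chr5:150522371-150522620 on the plus strand. The windows of Rad52 and Ung hold neither motif, that of Fanca holds 2 CCAAT boxes starting 50 and 23 bases before the start site, and those of Bard1 and Brca2 hold E2F letters, in Brca2 on the opposite strand.
Rad52: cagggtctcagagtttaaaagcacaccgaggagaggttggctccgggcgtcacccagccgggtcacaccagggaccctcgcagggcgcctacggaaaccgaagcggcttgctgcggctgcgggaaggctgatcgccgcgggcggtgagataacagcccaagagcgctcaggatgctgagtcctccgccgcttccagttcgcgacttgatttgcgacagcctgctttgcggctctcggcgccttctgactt
Ung: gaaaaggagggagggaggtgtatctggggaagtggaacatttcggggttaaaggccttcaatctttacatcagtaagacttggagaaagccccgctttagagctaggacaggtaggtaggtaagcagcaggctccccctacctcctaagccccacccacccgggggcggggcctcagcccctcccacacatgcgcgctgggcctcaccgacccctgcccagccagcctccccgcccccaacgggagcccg
Fanca: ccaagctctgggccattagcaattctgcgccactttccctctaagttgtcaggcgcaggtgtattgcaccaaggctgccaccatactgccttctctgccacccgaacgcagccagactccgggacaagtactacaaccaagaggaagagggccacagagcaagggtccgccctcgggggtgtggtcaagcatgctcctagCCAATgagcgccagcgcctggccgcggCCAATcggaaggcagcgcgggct
Bard1: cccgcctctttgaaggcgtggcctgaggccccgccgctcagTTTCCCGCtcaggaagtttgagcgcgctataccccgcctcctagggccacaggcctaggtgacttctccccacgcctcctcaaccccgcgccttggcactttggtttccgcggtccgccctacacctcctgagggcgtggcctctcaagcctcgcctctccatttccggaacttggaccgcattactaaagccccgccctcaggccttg
Brca2: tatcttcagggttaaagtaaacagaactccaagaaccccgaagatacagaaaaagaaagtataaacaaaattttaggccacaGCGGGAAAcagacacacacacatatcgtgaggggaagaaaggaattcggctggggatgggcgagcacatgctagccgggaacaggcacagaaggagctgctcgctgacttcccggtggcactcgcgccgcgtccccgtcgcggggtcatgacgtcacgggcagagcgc

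The library kit is not described as marking strand, and reads from overlapping genes can then not be told apart. In RefSeq 17 of the 51 genes overlap another protein-coding gene, among them Ung with Alkbh2 and Fanca with Zfp276. Alkbh2 had 4.28 and 4.71 RPKM in WT and 2.91 and 4.04 RPKM in JMJD1B-/-, below WT where Ung was above. Zfp276 had 7.06 and 7.17 against 6.96 and 6.55 RPKM, a log2 fold change of -0.07 where Fanca had -0.55. Rad52 overlaps no other gene there.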

How the data were processed

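Polyadenylated RNA of HSPCs was sequenced from 2 WT and 2 JMJD1B-/- libraries made with a TruSeq kit. The authors deposited 1 table of RPKM values to which 1 had been added, which was removed here. The submitters' processing notes name Novoalign, TopHat2 and the mm9 build without a role. The counting program and annotation are not given in the sources used here. The table has 12024 entries, and 84 entries sharing 42 names were averaged. It holds no gene under 1 RPKM in all 4 libraries and 0 columns of other samples. Only the column header of JMJD1B-/- replicate 1 carries the letters cat, whose meaning is not given. Relative depth was estimated from low genes, whose values form ratios of whole reads (tolerance 1e-05). Absolute depth was the value given by 35 of 226 genes that fitted whole reads and matched RefSeq. At most 4 genes gave any other depth. The rule halved the depth of a library whose counts in these genes were all even. The estimated depth covers counting error only.

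The test was limma 3.58.1 under R 4.3.3 (trend, no replicate term, two-sided) on log2(RPKM + 0.1), for genes whose mean reached 0.5 RPKM, with Benjamini-Hochberg adjustment over all genes tested, after tests on simulated data. A pseudocount understates the change of low genes. Python 3.11.15, numpy 2.4.6, pandas 2.3.3, scipy 1.17.1 and matplotlib 3.10.9 were used for tables and figures. The genes and lists were chosen with earlier results of these data known. Values in each library were given for genes with an unadjusted p under 0.05, for those without overlap and a log2 fold change of at least 0.5 in size, and for the highest and lowest gene in WT of each pathway, and further genes were added once their values were known. Among the further repair genes, 1 value that met this rule is not reported here. As alternatives served other pseudocounts, filters, scalings and tests, a replicate term and leaving out each library. RefSeq of GRCm38.p6, another build than mm9, served for promoters and neighbouring genes. The series' 31 ChIP-seq samples were left out, as they hold no expression values.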

Additional observations from a re-analysis of the deposited data

How the results depend on the processing

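With all 4 libraries, the median log2 fold change of the 51 genes kept its sign and stayed at 0.07 to 0.09 under pseudocounts of 1 and 0.01, other filters, both scalings and the other tests. Rad52 and Ung stayed higher and Fanca lower under the pseudocounts and filters. No gene was lower (0) with median-ratio scaling, quantile normalization, limma without a trend or the gene-by-gene test, and 1 was higher without a trend (Rad52) and in the gene-by-gene test (Exo1, unadjusted p = 0.0375). Over all genes, 632 were higher and 747 lower with median-ratio scaling, and 665 and 714 with quantile normalization, against 452 and 751 as deposited. With 1 library left out, 0 to 3 of the 51 genes were higher and 0 to 2 lower, the median was 0.014 to 0.154, and 123 to 1258 of all genes were higher and 177 to 1819 lower. None of the 51 passed unadjusted without either WT library. Without JMJD1B-/- replicate 1, Ung was lost (0.50) and Apex1 (0.66), Ddb1 (0.46) and Xpc (-0.53) passed unadjusted beside Rad52 and Fanca, and without JMJD1B-/- replicate 2, Fanca was lost (-0.35) and Ercc2 (-0.62) and Xrcc4 (-1.37) passed beside Rad52 and Ung, where 1 genotype is then assumed to vary like the other. The cause of these changes was not tested. The deviations of WT replicates 1 and 2 did not go with those of the same-numbered JMJD1B-/- replicates (correlation -0.054 over 11863 genes). A low correlation cannot tell whether same-numbered libraries were prepared together. With the replicate number as a block, 1 of the 51 genes was higher (Rad52) and 1 lower (Fanca), while Ung had an unadjusted p of 0.0507 (limma). Of all genes, 571 were higher and 914 lower. After adjustment none of the 51 passed with the block, and 256 of all genes did, against 5 without it. Read counts were not recovered, so no count test was run, and genes under 3 RPKM in JMJD1B-/- replicate 1 rest on few reads.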
